A study of Schmidtea mediterranea with 40 samples.

Results

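Stage 4 (S4) embryos of the planarian Schmidtea mediterranea were compared with intact adults of the asexual clonal line CIW4 (C4), transcript by transcript. Of the 40 libraries in the series, 8 entered the comparison: 4 from single S4 embryos of the sexual biotype, on day 4 after the egg capsule was deposited, and 4 from single intact C4 animals. Of 35262 transcripts in the deposited table, 26393 had RPKM values (reads per length of transcript and depth of library, rescaled by the authors) that summed to at least 1 over the 8 libraries, and these were tested. No animal was treated or mutant. All C4 animals descend from 1 clone that reproduces by fission, the embryos came from outbred sexual adults, and no asexual embryos were sampled, so that developmental stage and biotype cannot be told apart in a difference between S4 and C4. For this reason the levels in virgin, sexually mature adults (SX, 4 libraries) and in yolk from egg capsules without embryos (Y, 4 libraries) are given beside the results. The paper states that the SX libraries shared a lane of their own on a different sequencer model. A difference from SX can thus not be told apart from a difference between sequencing runs. Each library is a whole embryo or a whole animal, and in such samples fewer cells of a type and less RNA per cell cannot be told apart.

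A planarian egg capsule holds embryos among a large mass of yolk cells, which the embryo eats. By S4 the embryo has a thin outer layer (the primitive ectoderm), a temporary pharynx and a primitive gut around swallowed yolk, and between them lie undifferentiated, dividing blastomeres from which the definitive organs will form. None of these temporary organs lasts into the adult. The adult has a nervous system, eyes, muscle, a branched gut, a ciliated epidermis and protonephridia (excretory tubules), all renewed by neoblasts, the dividing stem cells that carry the PIWI-family protein PIWI-1.

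The S4 libraries held 7643283 to 10130495 reads and the C4 libraries 12167500 to 16985280. The authors' scaling factors, by which library sizes are multiplied, were 0.4241 to 0.8701 for S4 and 1.5647 to 1.9022 for C4. Log2 values of any pair of S4 libraries correlated at 0.918 to 0.934 across transcripts, those of any pair of C4 libraries at 0.95 to 0.981, and those of an S4 and a C4 library at 0.543 to 0.595. The 100 transcripts with the highest mean RPKM in Y took 70.1%, 69.3%, 64.1% and 52.2% of the reads of S4 replicates 1 to 4, against 9.51% to 11.4% in C4 and 76.4% to 82.2% in Y. S4 libraries thus carried much yolk RNA, S4 replicate 4 the least. S4 replicate 4 was also the highest of the 4 S4 libraries in 8997 of the 26393 transcripts tested, where the others led in 4285 to 5220.

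**Figure D1:**
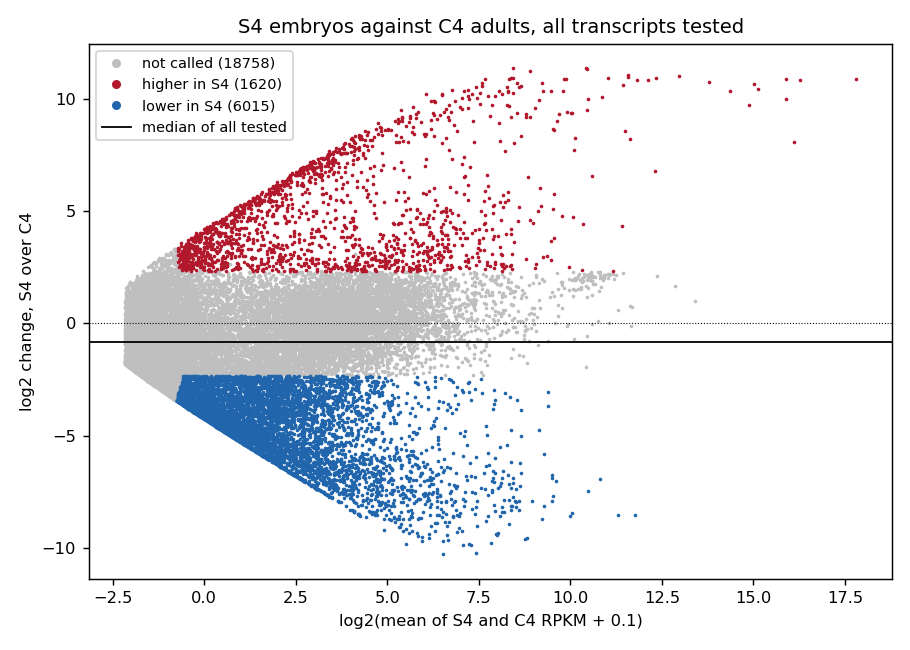
Log2 change of S4 over C4 (vertical axis) against the log2 of the average of the S4 and C4 mean RPKM plus 0.1 (horizontal axis) for the 26393 transcripts tested. Each point is a transcript, the 1620 called higher and the 6015 called lower in S4 are coloured, the solid line is the median of all tested at -0.81, and both clouds reach changes of more than 100-fold.

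Most of the transcripts that differed were lower in the embryo. A transcript was called where the adjusted p was under 0.05 (limma, Benjamini-Hochberg over all 26393), the change on the log2(RPKM + 0.1) scale was at least 5-fold, and the mean in the higher group was at least 1 RPKM. By this rule 1620 transcripts (6.14%) were higher and 6015 (22.8%) were lower in S4 than in C4. The median change was 4.03 among those called higher and -4.16 among those called lower, on the log2 scale, and 323 and 624 of them changed by more than 100-fold. Without the fold limit, 5194 transcripts (19.7%) had an adjusted p under 0.05 with S4 higher and 11770 (44.6%) with S4 lower. All 4 S4 values lay above all 4 C4 values in 4795 transcripts (18.2%), 1578 of them called higher, and below all 4 in 10521 (39.9%), 5895 of them called lower. The median change of all transcripts tested was -0.81. With a pseudocount of 1 in place of 0.1, which weighs low levels less, 997 transcripts were called higher and 2849 lower.

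The split depended on how the libraries were scaled to each other. Calls were 1620 higher and 6015 lower on the deposited scale, 2483 and 4131 after quantile normalization, which moved the median of all transcripts to 0.17, and 850 and 13089 when every library was set to the same RPKM sum, which moved it to -2.32. With RPKM recomputed from total reads without the authors' rescaling, an alternative chosen after seeing the data, they were 966 and 11026, with a median of -2.0. The changes given below are on the deposited scale, and a group of genes whose direction turns on another scale is named as such. Levels in Y are on the deposited scale too, where the scaling factors were 0.2028 to 0.2923 for Y and 0.4241 to 0.8701 for S4. Whether a transcript lies higher in Y than in S4 can depend on these factors and was not tested on another scale.

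A large share of the calls was also seen in the sexual adults. Of the 1620 transcripts called higher, 1578 lay in all 4 S4 libraries above all C4 libraries, and 1397 lay above all C4 and all SX libraries. Of the 6015 called lower, 5895 lay below all C4 libraries, and 5483 lay below all C4 and all SX libraries. The called sets were chosen for their difference from C4, and the counts with SX were not made over all transcripts tested. A mean in Y at or above that in S4 was found for 648 of the 1620 called higher. This is a similar share to the 10694 of all 26393 tested. In 864 of the 1620 the S4 mean was more than 5 times the Y mean. Among those called lower, 1080 had no read in any S4 library. For 271 of the 6015, a level of 3 reads over the 4 S4 libraries would lie less than 5-fold below the C4 mean, so that their change lies at the limit of what this depth resolves. At the fold limit itself, the last transcripts called, SMED30007587 and SMED30033766, had log2 changes of -2.32 (0.869 against 4.60 RPKM, and 1.31 against 6.97), while SMED30006745 at 2.32 (2.11 against 0.327) and SMED30019822 at -2.32 (2.69 against 12) fell just short.

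Transcripts of the primitive ectoderm and of embryonic cells in general were high in S4 and nearly absent from C4. EF1a-like-1, EF1a-like-2 and eIF4a-like mark embryonic cells of every kind, and gelsolin-like and spondin1-like are found outside the primitive ectoderm too, so that the levels belong to no single tissue. All 5 markers were called higher in S4 and had no overlap with C4, with a median change of 9.92 against -0.81 for all transcripts tested. These markers, like those of the pharynx and the gut below, were chosen by the study from transcripts that these same libraries showed to be enriched in early embryos, so their direction is a description and not independent evidence. EF1a-like-1 (SMED30004295) encodes an elongation factor 1-alpha, the protein that brings aminoacyl-tRNA to the ribosome. It reached 751, 838, 1163 and 1053 RPKM in the S4 libraries and 0.211, 0.398, 0.191 and 0.391 in C4. The lowest embryo was thus far above the highest C4 adult (log2 change 11.25 ± 0.24 SE, n = 4 and 4, adjusted p = 5.7e-09), and the means were 3.47 RPKM in Y and 0.148 in SX. Its relative EF1a-like-2 (SMED30012165) reached 525, 579, 800 and 872 RPKM in S4 against 0.117, 0.257, 0.29 and 0.389 in C4 (log2 change 10.93 ± 0.28). A further elongation factor 1-alpha transcript, SMED30024222, had the largest change among annotated transcripts called higher, with 575, 658, 872 and 677 RPKM in S4, 0.0959 to 0.284 in C4 and a log2 change of 11.37 ± 0.24.

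The EF1a-like pair are close copies, and a stretch of them is shown because it bears on how far the 2 levels can be separated. In the sequences of the study's cloned fragments, written 5′ to 3′ with the 11 differing bases in capitals, the first 120 aligned bases read:
EF1a-like-1: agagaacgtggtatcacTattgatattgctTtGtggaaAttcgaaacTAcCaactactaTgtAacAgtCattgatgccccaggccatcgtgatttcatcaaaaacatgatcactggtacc
EF1a-like-2: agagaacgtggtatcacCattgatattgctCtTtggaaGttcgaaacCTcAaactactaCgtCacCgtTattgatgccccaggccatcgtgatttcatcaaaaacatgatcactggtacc
Over 365 aligned bases, 33 differed (91.0% identity). Of the 316 windows of 50 bases, the length of a read, 105 had at most 2 differences, the mismatches the authors' alignment allowed. The alignment kept only the best matches of a read, at up to 5 positions. A read free of errors would thus be shared by the copies only where they are identical. The fewest differences in a window were 0, and such windows were not counted separately. How far the levels of EF1a-like-1 and EF1a-like-2 are mixed was not tested, so their separate values are uncertain. Both copies together were high in S4 and near 0 in C4.

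The other markers of this list were also higher in every embryo. Gelsolin-like, a member of a family that caps and severs actin filaments, had 179, 245, 207 and 287 RPKM in S4 and 0.0712 to 0.234 in C4 (log2 change 9.92 ± 0.25). eIF4a-like, an RNA helicase of translation initiation, had 66.8 to 89.3 RPKM in S4 and 0 to 0.159 in C4 (9.04 ± 0.32). Spondin1-like, which encodes a secreted matrix protein, was the lowest of the 5 with 13.8 to 35.3 RPKM in S4 and 0.0174 to 0.0471 in C4 (7.58 ± 0.32). In all 5 the lowest S4 value lay far above the highest C4 value.

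**Figure D2:**
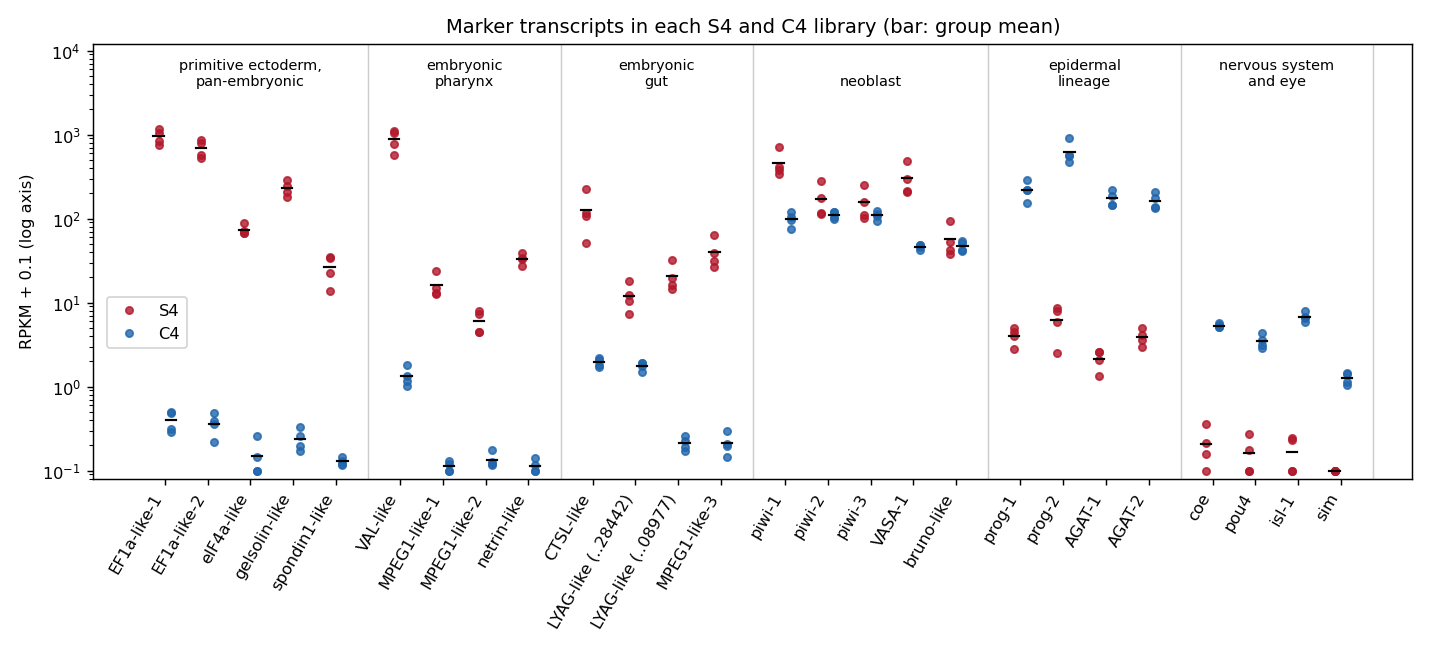
RPKM + 0.1 on a log axis for marker transcripts in each of the 4 S4 and 4 C4 libraries, with bars at the group means. The markers of primitive ectoderm and embryonic cells in general, of the embryonic pharynx and of the embryonic gut stand higher in S4, those of the epidermal lineage and the nervous system lower, and among those of neoblasts piwi-1 and VASA-1 stand higher while piwi-2, piwi-3 and bruno-like overlap.

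Markers of the temporary pharynx and of the embryonic gut were also higher in S4, with low levels in C4 adults. All 4 pharynx markers were called higher (median change 7.66). VAL-like, which encodes a secreted protein of the venom allergen family, was by far the most abundant, with 580, 1117, 1035 and 783 RPKM in S4 and 0.922 to 1.71 in C4 (log2 change 9.36 ± 0.25, adjusted p = 1.3e-08). Netrin-like encodes a member of a family of secreted guidance proteins. It had 33.1, 33.8, 27.0 and 39.0 RPKM in S4, while C4 held 3 reads of it over all 4 libraries, giving a ratio of pooled levels of 2287 (95% interval 781 to 11102, for counting error only). MPEG1-like-1 and MPEG1-like-2, relatives of the pore-forming macrophage-expressed perforin, had lower levels of 12.6 to 24.0 and 4.32 to 7.91 RPKM in S4, and at most 0.0293 (3 reads in all) and 0.0751 in C4.

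A stretch of netrin-like is shown because this transcript marks the pharynx with almost no read in C4. The region targeted by the study's hybridization probe, bases 871 to 970, reads:
netrin-like: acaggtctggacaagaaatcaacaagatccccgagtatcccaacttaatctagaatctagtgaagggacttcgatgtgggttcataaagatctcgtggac

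All 4 embryonic gut markers were called higher as well (median change 6.19). In the paper's in situ hybridization these genes were also seen in the temporary pharynx, so their levels belong to neither tissue alone. CTSL-like encodes a relative of cathepsin L, a protease of lysosomes, and had 51.3, 116, 108 and 224 RPKM in S4 against 1.60 to 2.07 in C4 (log2 change 5.83 ± 0.38, adjusted p = 1.1e-06). MPEG1-like-3 reached 26.7 to 63.5 RPKM in S4 and 0.0465 to 0.197 in C4. LYAG-like denotes a pair of transcripts for relatives of lysosomal alpha-glucosidase, the enzyme that breaks down glycogen. The pair behaved unequally: SMED30008977 had 14.3 to 31.7 RPKM in S4 and 0.0713 to 0.158 in C4 (6.55 ± 0.30), while SMED30028442 had 7.27 to 17.8 and 1.39 to 1.81 (2.70 ± 0.27), and the latter lost the call with a pseudocount of 1. In all 4, S4 replicate 4 was the highest of the S4 libraries, and the same held for 3 of the 4 pharynx markers and 4 of the 5 markers of the primitive ectoderm and of embryonic cells in general.

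The 14 further early embryo transcripts that the study examined by in situ hybridization were all called higher, beside 6.14% of all transcripts. Their changes ran from 5.14 to 10.71 with a median of 7.67. The study had picked them from transcripts that these same libraries showed to be enriched in early embryos, so their direction is a description. The translationally controlled tumor protein homolog tct-like had 286, 326, 438 and 498 RPKM in S4 and 0.0662 to 0.293 in C4 (10.71 ± 0.30). BTF3-like, related to a subunit of the complex that meets new polypeptides at the ribosome, had 234, 231, 262 and 285 RPKM in S4 and 0.114 to 0.485 in C4 (9.64 ± 0.29). Several of the 14 belong to protein turnover: the ubiquitin-conjugating enzymes UbE2 K-like and UbE2 N-like reached means of 131 and 107 RPKM in S4 against 0.322 and 0.222 in C4, and the proteasome subunit PSMA5-like 91.6 against 0.113. dnaJ-like, a co-chaperone relative, varied most among embryos, with 16, 4.97, 14.3 and 3.30 RPKM in S4 and a single read in C4, giving a pooled ratio of 818 with an interval of 145 to 32506. NFX-1-like, a zinc finger protein, had the smallest change of the set with 6.78 to 16 RPKM in S4 and 0.118 to 0.26 in C4.

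The larger sets of early embryo enriched transcripts were less uniform. The study had grouped them by their course over the same libraries, so their direction too is a description. Of 495 tested members of cluster 6, 365 were called higher and 6 lower (median 4.72, or 5.25 with the 91 members at 0 in all C4 libraries set at the bound that 3 reads allow). Of 112 in cluster 8, 99 were called higher and none lower (median 4.81, or 5.04 with 11 such members at their bound). A total of 143 of the 411 in cluster 5 were called higher and 88 lower, beside 6.14% and 22.8% of all transcripts. These counts were 159 and 29 after quantile normalization, 121 and 154 with RPKM by total reads and 111 and 177 with equal RPKM sums. The median of 0.53 was below 0 with equal RPKM sums (-1.52) or with RPKM by total reads (-1.03). EF1a-like-1 and heat shock protein 83, a chaperone of the HSP90 family (486 to 810 RPKM in S4, 0.114 to 0.38 in C4), belong to cluster 5. With a pseudocount of 1, the numbers called higher in clusters 5, 6 and 8 were 100, 238 and 65, and 33 in cluster 5 were called lower.

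The S4 embryos also differed among themselves in these sets. S4 replicate 3 was the highest of the 4 embryos in 320 of the 495 members of cluster 6, and S4 replicate 4 in 66 of the 112 members of cluster 8. Cluster 6 included a pair of innexins, the gap junction proteins of invertebrates, named here after their values were seen. SMED30031242 had 83.2, 63.7, 134 and 53.5 RPKM in S4 and 0.0199 to 0.107 in C4, and SMED30000077 had 93.7, 118, 177 and 52.6 and 0.0273 to 0.152. In both, replicate 3 was the highest and replicate 4 the lowest embryo. In cluster 8 the transcript with no annotation SMED30034461 had 2285, 2303, 2776 and 3868 RPKM in S4 and 0.679 to 1.19 in C4 (log2 change 11.32 ± 0.23).

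**Figure D3:**
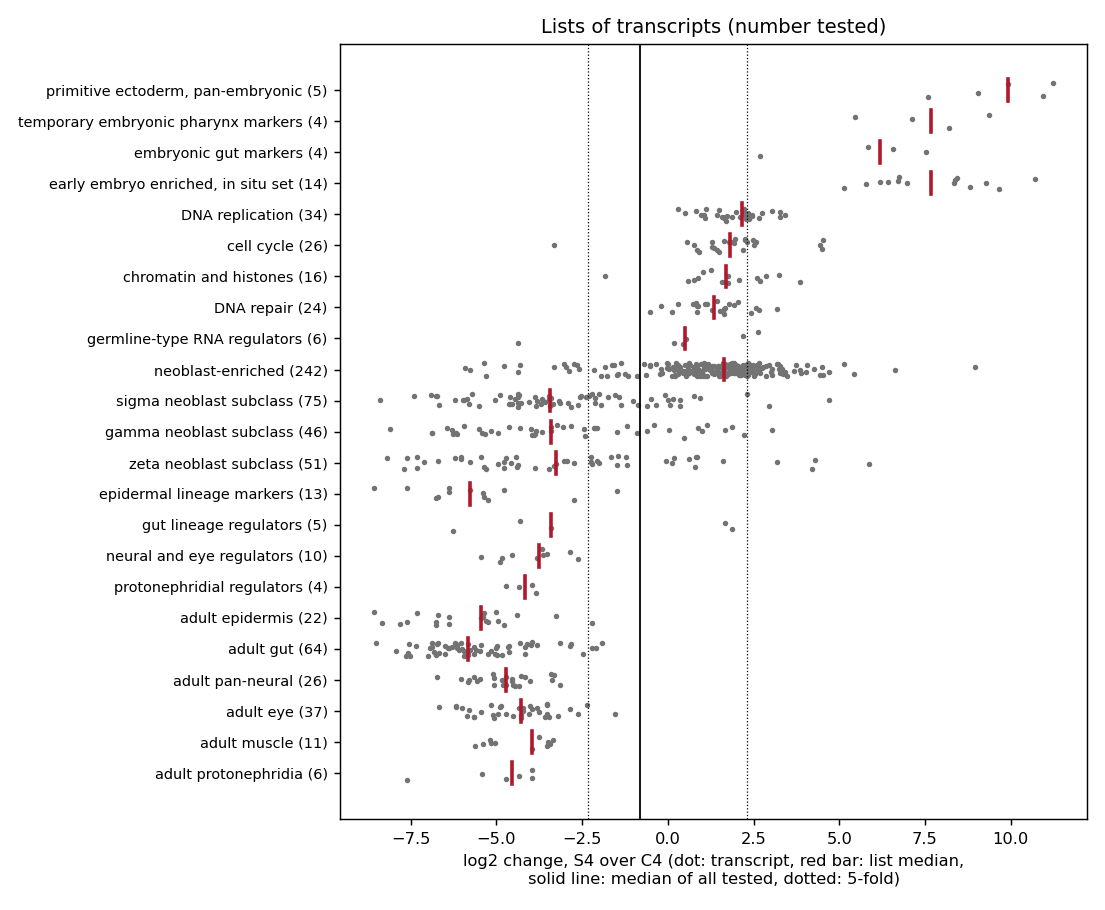
Log2 changes of S4 over C4 for the members of each list (points) with the list median (bar) and the median of all transcripts tested (line at -0.81). Embryonic marker lists lie to the high side, adult tissue lists to the low side, and the functional groups of neoblast-enriched genes between them.

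Neoblast-enriched transcripts were for the most part higher in S4 than in C4 on the deposited scale, but not with equal RPKM sums. Of 242 neoblast-enriched transcripts, a list drawn up from other studies, 53 were called higher and 13 lower (percent called over all transcripts 6.14 and 22.8). Without the fold limit, 171 had an adjusted p under 0.05 with S4 higher and 25 with S4 lower. The median change of 1.63 became 2.4 after quantile normalization, 0.07 with RPKM by total reads and -0.41 with equal RPKM sums, where 8 were called higher and 29 lower. With a pseudocount of 1, 27 were called higher and 7 lower. Of the 53, 14 had a mean in Y at or above that in S4.

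The embryo with the least yolk had the highest levels of most of these transcripts. S4 replicate 4, with 52.2% of its reads in the yolk list, was the highest embryo in 193 of the 242 transcripts and in all 6 RNA regulators. Without this library, 41 of 241 were called higher and 13 lower, with a median of 1.42. The part of the yolk share in these differences was not tested.

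Among the RNA regulators typical of neoblasts and germ cells, piwi-1 and VASA-1 were higher in S4 on the deposited scale while the others either overlapped or were lower. The median change of the 6 was 0.49, or 0.11 after quantile normalization, -1.11 with RPKM by total reads and -1.60 with equal RPKM sums. piwi-1 (SMED30007406), the defining neoblast marker, had 378, 344, 417 and 718 RPKM in S4 and 96.1, 119, 105 and 75 in C4. Every embryo was above every C4 adult (log2 change 2.19 ± 0.25, adjusted p = 4.6e-05), but the change lay under the 5-fold limit, and it was 0.10 with equal RPKM sums. Y held 115 RPKM of it. VASA-1, a DEAD-box RNA helicase, had 212, 208, 300 and 482 RPKM in S4 and 42.0 to 48.0 in C4, and was called higher (2.62 ± 0.26, adjusted p = 1.7e-05). piwi-2 had 117, 115, 175 and 281 RPKM in S4 and 98.4 to 120 in C4, and piwi-3 had 110, 102, 159 and 254 and 94.3 to 122. For both the groups overlapped and the adjusted p was 0.12 and 0.20 (limma). bruno-like, which encodes an RNA-binding protein, had 37.7 to 94.1 RPKM in S4 and 41.2 to 53.9 in C4 (0.18 ± 0.27, adjusted p = 0.59). With equal RPKM sums piwi-2, piwi-3 and bruno-like were lower in S4 by adjusted p, at -1.55, -1.66 and -1.91 (adjusted p = 0.013, 0.0086 and 0.0041). nanos, a translational repressor of germ cells, was called lower, with 1 read in the 4 S4 libraries against 1.62 to 3.39 RPKM in C4 (adjusted p = 1.1e-05) and a pooled ratio of C4 over S4 of 42.7 with an interval of 7.57 to 1694.

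A stretch of piwi-1 is shown because it identifies the neoblast marker. The region targeted by the study's hybridization probe, bases 1115 to 1214, reads:
piwi-1: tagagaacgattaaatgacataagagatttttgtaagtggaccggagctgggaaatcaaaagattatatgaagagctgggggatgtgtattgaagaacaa

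The DNA replication genes of the neoblast-enriched list were higher almost throughout. Of all transcripts, 19.7% had an adjusted p under 0.05 with S4 higher, 18.2% lay above C4 without overlap and 6.14% were called higher. Of the 34 tested here, 31 had an adjusted p under 0.05 with S4 higher and none with S4 lower. Of the 34, 30 did not overlap and 12 passed the 5-fold limit (median 2.15). This median was 0.58 with RPKM by total reads and 0.09 with equal RPKM sums, and without S4 replicate 4, the highest embryo in 31 of the 34, 5 rather than 12 passed the limit. Without C4 replicate 4, 8 passed, and with a pseudocount of 1, 6. PCNA, the sliding clamp of DNA polymerases, had 145, 92.8, 168 and 311 RPKM in S4 and 27.9, 43.1, 27.7 and 23.8 in C4 (2.45 ± 0.35, adjusted p = 0.00019). MCM2, a subunit of the replicative helicase, had 40.5, 36, 51.9 and 89.0 RPKM in S4 and 5.2 to 7.25 in C4 (3.03 ± 0.28). The other helicase subunits in the list, MCM3, MCM4, MCM5 and MCM7, changed by 2.19, 2.75, 2.35 and 1.98. The licensing factor CDC6 had 5.16 to 15.6 RPKM in S4 and 0.884 to 1.47 in C4 (2.65 ± 0.35). Without S4 replicate 4, PCNA (2.14), MCM5 (2.08) and CDC6 (2.32) lost the call, and MCM5 also lost it without S4 replicate 3 or C4 replicate 4. In all of these genes the mean in Y was below that in C4.

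The enzymes of deoxyribonucleotide supply differed in their yolk levels. dUTPase rose from a mean of 12.4 ± 2.24 RPKM (SD, n = 4) in C4 to 130 ± 66.3 in S4 with 1.43 in Y. The ribonucleotide reductase subunits RRM1 and RRM2 had means of 365 and 137 RPKM in S4, 38.0 and 12.6 in C4, and 601 and 203 in Y. Both were called higher in S4 (3.26 ± 0.15 and 3.43 ± 0.23) while being highest in yolk on the deposited scale.

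Cell cycle genes were also mostly higher. Of 26, 24 had an adjusted p under 0.05 with S4 higher, and 6 were called higher and 1 lower. The shares over all transcripts were 19.7%, 6.14% and 22.8%. The median was 1.82, or -0.21 with equal RPKM sums. Without S4 replicate 4, 4 were called higher, without replicate 1 or 2, 9, and with a pseudocount of 1, 3. The 3 largest changes were those of the mitotic kinases PLK1 (243 to 305 RPKM in S4, 9.48 to 12.9 in C4) and aurora kinase-1 (65.1 to 131 and 3.40 to 5.01) and of CKS2, a partner of cyclin-dependent kinases (100 to 179 and 4.65 to 6.78). On the deposited scale all 3 had higher means in Y, of 470, 255 and 330 RPKM. CDC16, a subunit of the anaphase-promoting complex, and the kinase WEE1-like, which restrains entry into mitosis, were called higher without such a yolk level, at 17.7 and 7.40 RPKM in S4, 3.01 and 1.15 in C4 and 3.59 and 0.0547 in Y. Both lost the call without S4 replicate 4 (2.29 and 2.30), and the 4 that were then still called higher, PLK1, aurora kinase-1, CKS2 and CENP-E (10.9 RPKM in S4, 13.2 in Y), all had a mean in Y above that in S4. CENP-E lost the call without S4 replicate 2 (2.27). The mitotic cyclins cyclin B-1 and cyclin B-2 changed by 1.65 and 1.44, below the limit. MELK, a kinase of the AMPK-related family, was the only member called lower, with 3 reads in S4 and 1.67 to 3.21 RPKM in C4 (pooled ratio of C4 over S4 14.5, interval 4.89 to 70.9). Its mean in the sexual adults was 0.00917 RPKM.

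**Figure D4:**
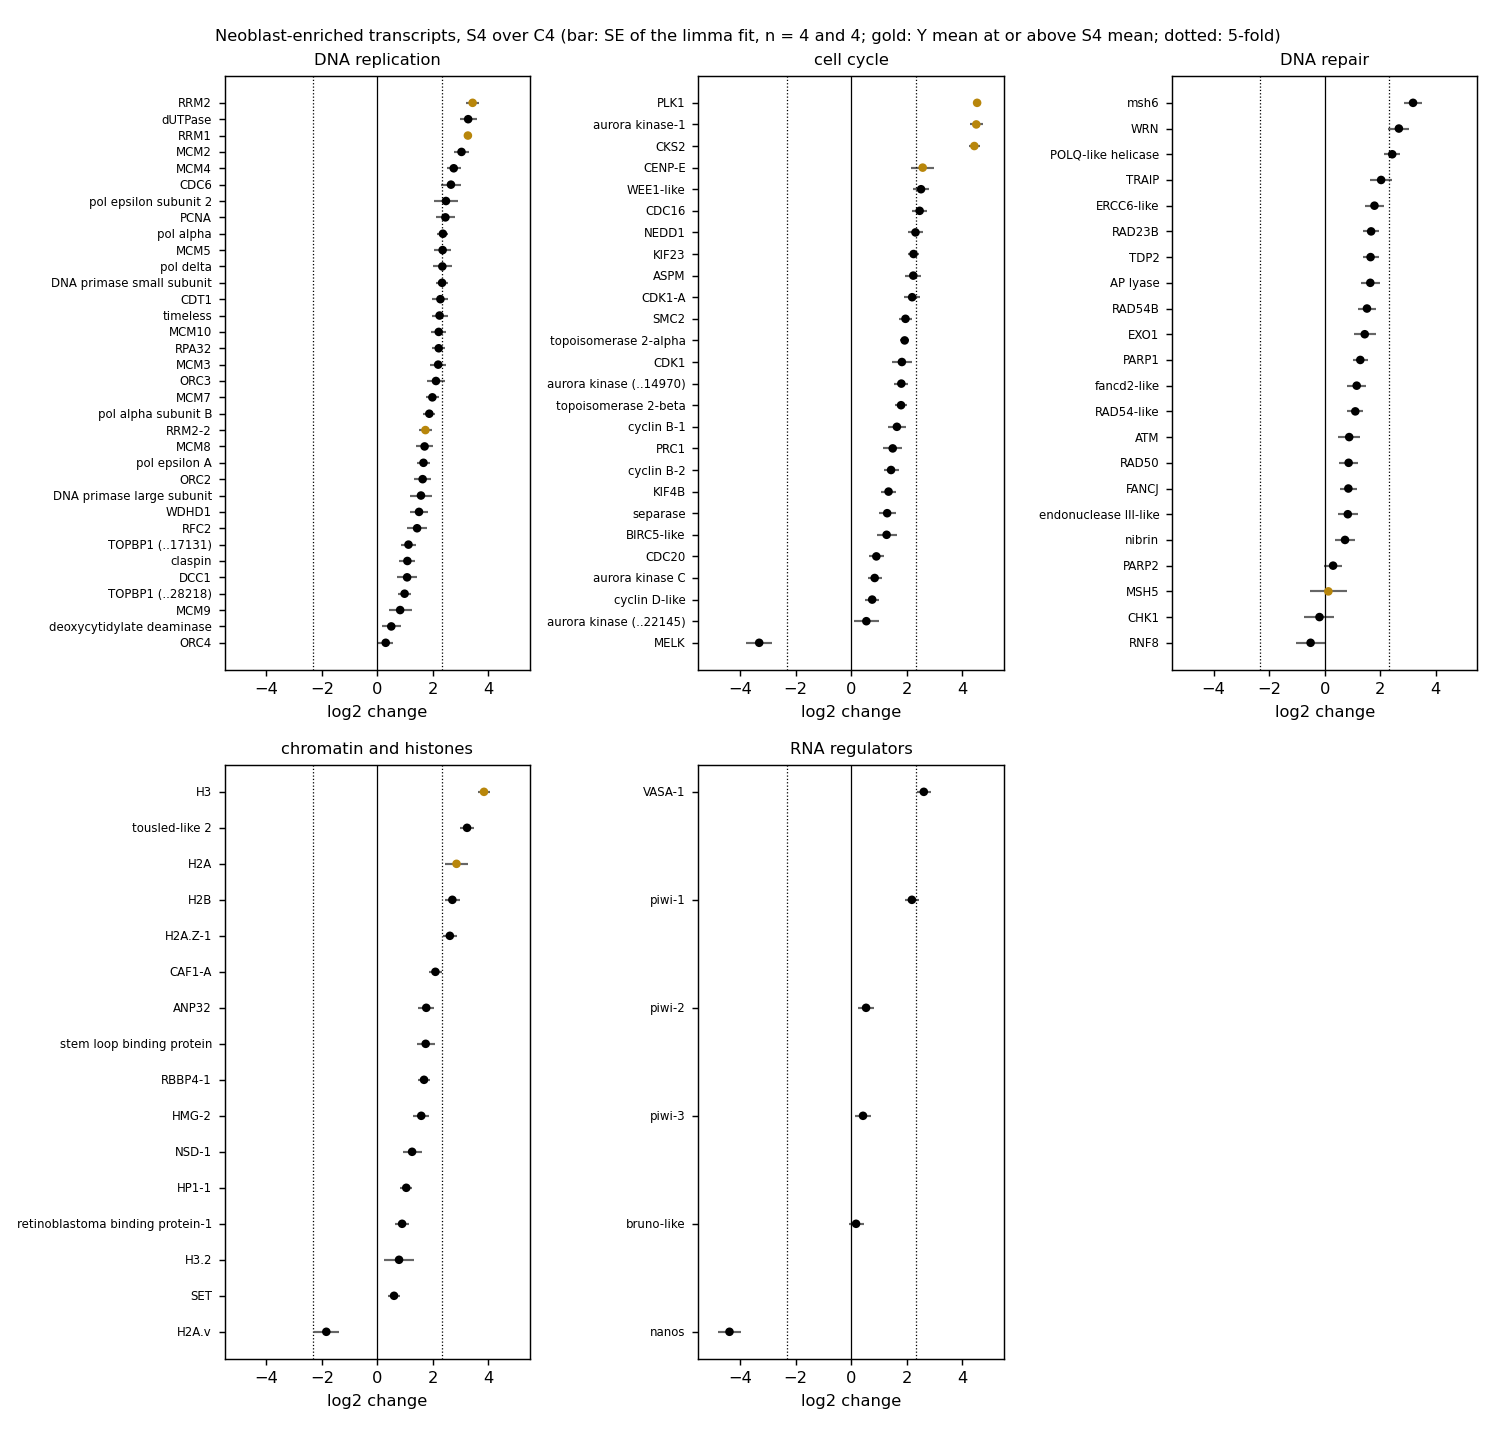
Log2 change of S4 over C4 with its SE for named neoblast-enriched genes of 5 functional groups, with dotted lines at 5-fold. Gold points have a mean in Y at or above that in S4, and most points of the DNA replication and cell cycle groups lie to the right of 0.

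DNA repair and chromatin genes had smaller median changes. Over all transcripts, 19.7% had an adjusted p under 0.05 with S4 higher, 44.6% with S4 lower, and 6.14% were called higher. Of 24 repair genes, 17 had an adjusted p under 0.05 with S4 higher and 4 were called (median 1.36, or -0.68 with equal RPKM sums), of which 1 kept the call with a pseudocount of 1. The mismatch repair gene msh6 had 13.3, 11, 18.8 and 34.8 RPKM in S4 against 1.62 to 2.03 in C4 (3.18 ± 0.33). Of 16 chromatin genes, 14 had an adjusted p under 0.05 with S4 higher and 1 with S4 lower, and 5 were called higher (median 1.71, or -0.35 with equal RPKM sums), or 3 with a pseudocount of 1. A pair of H2A variants went opposite ways: H2A.Z-1 had 144, 136, 147 and 254 RPKM in S4 and 21.7 to 40.7 in C4, while H2A.v had 10.7, 12.2, 21.7 and 48.5 in S4 and 54.9 to 110 in C4 (2.61 ± 0.26 and -1.84 ± 0.45, adjusted p = 1.8e-05 and 0.0056).

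The neoblast-enriched transcripts that were lower in S4 included markers of the epidermal lineage. Of the 13 called lower, PROG-1 (SMED30020396) and prog-1 (SMED30035904), markers of early epidermal descendants of neoblasts, changed most, with 2.65 to 5.64 and 2.72 to 4.85 RPKM in S4 against 180 to 400 and 154 to 291 in C4. The transcription factors SoxP-3 and egr-1 had means of 0.304 and 0.547 RPKM in S4 against 16.4 and 17.0 in C4. fgfr1, a receptor for fibroblast growth factors, had 0.116 against 7.98. The tumor suppressor p53 had 2.18, 1.23, 3.2 and 6.98 RPKM in S4 and 16.6 to 24.0 in C4 (-2.75 ± 0.44, adjusted p = 0.00042). All of these were also lower in S4 than the mean of SX, at 11.2, 9.91, 3.34 and 12.3 RPKM for the last 4.

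Lists of the subclasses of adult neoblasts, some of whose members are also in the lists above, were lower for the most part. In the list of zeta neoblasts, which feed the epidermis, 29 of 51 were called lower and 4 higher (median -3.26). In gamma neoblasts, which feed the gut, 28 of 46 were called lower and 1 higher (-3.40). In sigma neoblasts, the subclass held to be least restricted, 49 of 75 were called lower and 2 higher (-3.43, or -3.40 with members at 0 at their bound). Of the 7 called higher in these lists, 4 had a mean in Y at or above that in S4. Over all transcripts tested, 22.8% were called lower. Gamma had 2 called higher without C4 replicate 2, S4 replicate 3 or S4 replicate 4, and sigma had 23 called lower with a pseudocount of 1.

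Epidermal lineage markers were at low levels in S4. Of 13, 12 were called lower and all 13 lay below C4 without overlap, beside 22.8% and 39.9% of all transcripts (median -5.76). prog-2 had 2.41, 5.73, 8.52 and 7.92 RPKM in S4 and 566, 906, 559 and 471 in C4 (-6.75 ± 0.39, adjusted p = 5.0e-07). The later markers AGAT-1 and AGAT-2, relatives of glycine amidinotransferase, had 1.23 to 2.50 and 2.85 to 4.90 RPKM in S4 and 147 to 219 and 134 to 208 in C4. cyp3140A1, a cytochrome P450 of this lineage, had 3 reads in S4 and 42.5 to 67.3 RPKM in C4 (pooled ratio 559, interval 191 to 2713). Of the 13, only zfp-1, a zinc finger factor needed for this lineage, stayed under the limit with 1.92 to 5.37 against 7.39 to 9.64 RPKM (-1.49 ± 0.32, adjusted p = 0.0026). In 10 of the 13 the mean in Y was at or above that in S4, and the summed level of the list was 17.3 to 36.2 RPKM in S4 against 1322 to 2280 in C4.

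Gut regulators went both ways. hnf-4 and gata456a, transcription factors of the gut, were higher in S4 by adjusted p, with 114, 148, 132 and 77.9 RPKM for hnf-4 and 79.1, 133, 72.1 and 42.0 for gata456a, against 30.6 to 42.1 and 16.4 to 24.2 in C4 (1.68 ± 0.21 and 1.86 ± 0.31, adjusted p = 9.1e-05 and 0.00058). Neither reached 5-fold, and with equal RPKM sums their changes were -0.41 and -0.23. On the deposited scale both had higher means in Y, at 187 and 182 RPKM, and S4 replicate 4, with the least yolk, was the lowest embryo in both. nkx2.2, prox-1 and EGFR-2 were called lower. nkx2.2, a homeobox gene, had 0 to 1.94 RPKM in S4 and 36.3 to 48.2 in C4 (-6.26 ± 0.77), EGFR-2, a receptor of the epidermal growth factor family, had 0.221 to 0.689 and 5.34 to 7.29, and prox-1 had 2 reads in S4 and 2.27 to 2.97 RPKM in C4 (pooled ratio 45, interval 12.4 to 373). With a pseudocount of 1, 1 of these 3 kept the call.

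Regulators of the nervous system and the eyes were at or near the limit of detection in the embryo. All 10 neural and eye regulators were called lower, beside 22.8% of all transcripts, and had a mean under 1 RPKM in S4. Their median change was -3.75, or -3.99 with the 3 at 0 at their bound. Their summed level was 0.402 to 1.26 RPKM in S4 and 26.4 to 29.9 in C4. coe, a transcription factor of differentiating neurons, had 0, 0.256, 0.111 and 0.0576 RPKM in S4 and 4.98 to 5.59 in C4 (-4.84 ± 0.39, adjusted p = 4.0e-06). isl-1 and pou4 had 3 and 2 reads in all S4 libraries and 5.75 to 7.91 and 2.79 to 4.31 RPKM in C4 (pooled ratios 83.2, interval 28.4 to 404, and 52.0, interval 14.3 to 431). sim and soxB-1 had no read in S4, which placed them at least 17.8-fold and 35.9-fold lower than the C4 means of 1.16 and 2.90 RPKM, taking 3 reads over the 4 S4 libraries as the floor. With a pseudocount of 1 in place of 0.1, 2 of the 10 kept the call.

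Lists of adult tissue transcripts were lower throughout. Their tissue came for the most part from published adult data, but the study listed only those that these same libraries showed to be enriched in later embryos, so their direction is a description. The calls were 26 of 26 for pan-neural transcripts (median -4.73), 36 of 37 for the eye (-4.29), 61 of 64 for the gut (-5.83), 21 of 22 for the epidermis (-5.44), 11 of 11 for muscle (-3.96) and 6 of 6 for protonephridia (-4.54), none of them higher. Every member that missed the call was still lower by adjusted p and without overlap. Over all transcripts, 22.8% were called lower and 39.9% lay below C4 without overlap. The summed level of the gut list was 43.2 to 135 RPKM in S4 and 4817 to 7134 in C4, and that of the muscle list 0.69 to 1.55 and 36 to 42.5. All of these lists kept their direction on every scale tried, but with a pseudocount of 1 the numbers called lower were 14 for pan-neural, 19 for eye, 53 for gut, 20 for epidermis, 4 for muscle and 2 for protonephridia. All 4 protonephridial regulators were called lower as well, and none kept the call with a pseudocount of 1. Among them pou2-3, osr and sal1 had means of 0.36, 0.192 and 0 RPKM in S4 and 4.36, 4.55 and 1.46 in C4.

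Secreted signals and receptors went both ways. nlg-4 encodes a noggin-like protein, a relative of secreted inhibitors of BMP ligands. It had 10.4, 14.1, 13.2 and 24.0 RPKM in S4 and 3 reads in C4 (pooled ratio 544, interval 185 to 2651, adjusted p = 1.4e-07). inhibin-1, an activin-type ligand, had 27.6, 2.48, 19.4 and 1.67 RPKM in S4 and no read in C4, which placed it at least 529-fold higher. Replicates 1 and 3 were far above replicates 2 and 4 (adjusted p = 0.00016). GLI-2, a transcription factor at the end of the hedgehog pathway, had 1.60 to 4.22 RPKM in S4 and 0.0502 to 0.256 in C4 (3.72 ± 0.41). Its relative GLI-3 was called lower, with 0 to 0.655 and 1.01 to 1.53 RPKM (-2.73 ± 0.63, adjusted p = 0.0037).

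Of the 10 members, 3 were called higher and 5 lower, beside 6.14% and 22.8% of all transcripts. With a pseudocount of 1, 2 of each were called. bambi, a decoy receptor of TGF-beta-type ligands, had no read in S4 and 5.49 to 8.36 RPKM in C4, at least 54.9-fold lower in S4. fgfr4 had 0.172 to 0.427 RPKM in S4 and 3.43 to 4.96 in C4 (-3.36 ± 0.29), and the noggin-like nlg-3 had 0 to 0.549 and 3.29 to 5.46 (-3.79 ± 0.54). follistatin, an activin inhibitor, was higher by adjusted p with 13.2 to 27.2 against 4.54 to 5.12 RPKM (1.83 ± 0.23). nlg-6 was at 0.0747 to 0.233 RPKM in S4 and 0.0539 to 0.233 in C4, and no difference was detectable at this depth (-0.01 ± 0.40, adjusted p = 0.98).

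The most abundant transcripts called higher in S4 were abundant in yolk. Of the 100 transcripts highest in Y, 52 were called higher in S4 and none lower, beside 6.14% and 22.8% of all transcripts. The median change of the list was 3.25, and 97 members had a mean in Y at or above that in S4. The list was chosen by its level in these same Y libraries, so the count of 97 is a description. The 10 transcripts at the top of the yolk list took 38.1% to 54.0% of the reads of S4 libraries, 0.0816% to 0.18% of those of C4 and 0.0289% to 4.46% of those of SX. The first of them, SMED30030028, had no annotation. It reached 662954, 609525, 350729 and 198569 RPKM in S4 replicates 1 to 4, and 141, 256, 172 and 348 in C4. All embryos were far above all C4 adults (log2 change 10.89 ± 0.44). The order of the embryos was that of their yolk share, of which this transcript is itself a part. The 4 SX libraries ranged from 0.833 to 9391 RPKM in this transcript, both below and above C4. S4 replicate 1 was the highest embryo in 79 of the 100 yolk transcripts, and S4 replicate 4 in none. These transcripts define the yolk share, so this order is a description of it and not separate evidence.

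**Figure D5:**
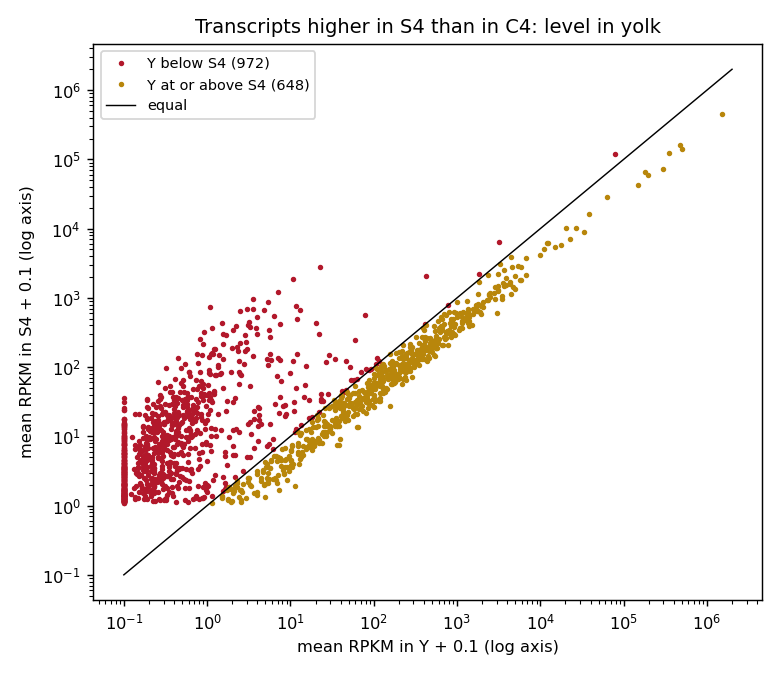
Mean RPKM + 0.1 in S4 (vertical log axis) against mean RPKM + 0.1 in Y (horizontal log axis) for the 1620 transcripts called higher in S4 than in C4, with a line where both are equal. The 648 transcripts with a Y mean at or above the S4 mean lie on or below the line and the 972 with a lower Y mean above it.

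At the adult end, enzymes and secreted proteins were among the most abundant annotated transcripts called lower. The astacin-type metalloproteinases annotated as nas-4 (SMED30007813) and nas-14 (SMED30019357) after the worm Caenorhabditis elegans had 2435, 2365, 1984 and 1681 RPKM and 2093, 2381, 1936 and 1677 RPKM in the C4 libraries, and 3.91 to 7.40 and 3.89 to 6.70 in S4. Every C4 library was far above every embryo in both (-8.43 ± 0.22 and -8.60 ± 0.19). Glutathione S transferase-1 had 2787 to 4141 RPKM in C4 and 14.9 to 65.2 in S4 (-6.93 ± 0.46). The gastric triacylglycerol lipase SMED30003335 had 217 to 306 RPKM in C4 and 0.179 to 0.491 in S4 (-9.26 ± 0.25), and a ganglioside GM2 activator, a lipid-binding protein of lysosomes, 260 to 525 and 0.344 to 0.78 (-9.04 ± 0.31).

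Some transcripts abundant in C4 had no read or few reads in S4. mmp2 (SMED30003191), a matrix metalloproteinase, had no read in S4 and 98.8, 95.4, 92.5 and 81.0 RPKM in C4, at least 354-fold lower in the embryo, with 16.9 RPKM in SX. Another matrix metalloproteinase, annotated as collagenase 3 (SMED30019930), had 1194 to 1609 RPKM in C4 and 9.77 to 15.4 in S4 (-6.75 ± 0.18). A transcript with no annotation, SMED30023241, had 135 to 282 RPKM in C4 and 1 read in S4 (pooled ratio 1522, interval 273 to 60117). Another, SMED30008790, had 339, 474, 296 and 257 RPKM in C4 and 0 to 1.61 in S4, with 0.391 in SX. Secreted peptide prohormone 1, a neuropeptide precursor, had 84.0 to 119 RPKM in C4 and 2 reads in S4 (pooled ratio 367, interval 102 to 3035), with 26.8 RPKM in SX.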

How the data were processed

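RNA was sequenced from single S4 embryos and single C4 adults (4 libraries each) and aligned to a transcriptome with Bowtie, with CASAVA 1.8.2 and edgeR named in the submitters' processing notes. Reads of 50 bases were allowed 2 mismatches and up to 5 places, with only the best matches kept. The authors deposited RPKM, scaled by TMM factors, for 35262 transcripts in 40 libraries, and the rRNA transcripts to be left out were not in the table analysed. Whole reads were recovered from the deposited values for 35262 transcripts (100.000% of values within 0.01 read), at 7643283 to 16985280 per library here. Intervals and floors cover counting error only.

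Values were tested as log2(RPKM + 0.1) with limma 3.58.1 in R 4.3.3 (trended empirical Bayes, two-sided, Benjamini-Hochberg over the 26393 transcripts whose RPKM summed to at least 1). A call needed an adjusted p under 0.05, a 5-fold change and, in whichever group was higher, a mean RPKM no lower than 1. Fold changes on this scale understate the change of low transcripts. P-values measure the spread between single animals of each group. Where all libraries of a group were at 0, the floor was 3 reads over the group. Pooled ratios have exact 95% intervals. The fit was tested on simulated data. Transcripts were named if they were among the 10 largest changes, the 10 largest annotated changes or the 10 highest levels in each direction, or belonged to the marker and functional lists. Innexins, SMED30034461, PROG-1 and the transcripts of the closing section were added after their values were seen. The members and lists were chosen with earlier results of these data known. Alternatives covered the pseudocount, filter, scaling, replicate block, fit and thresholds, and each library left out. No genome was used. Some members of the lists are counted but not reported by name here.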

Additional observations from a re-analysis of the deposited data

Results flagged for a closer look

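In 222 groups of 4 libraries checked for the named transcripts, 12 held a library far from the other 3, where the gap to the nearest value, as a share of the range, exceeded Dixon's 95% critical value. Chance flags about 1 in 20 groups. In 6 of them the gap was 1.0 because a single library held reads: S4 replicate 4 for SMED30023241, nanos, cyp3140A1 and osr, S4 replicate 3 for prox-1 and C4 replicate 3 for dnaJ-like. S4 replicate 4 was also far above the other embryos in H2A.Z-1 (gap 0.866 of the range). S4 replicate 1 was far above them in RRM2 (0.894). S4 replicate 3 was far below them in nas-4 (0.83) and in GLI-2 (0.831), and far above them in tubulin beta SMED30010977 (0.834). C4 replicate 4 was far below the other adults in MCM4 (0.844).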

How the results depend on the processing

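Counts called higher and lower were 997 and 2849 with a pseudocount of 1, 850 and 13089 with equal RPKM sums, 966 and 11026 with RPKM by total reads (chosen after seeing the data) and 961 and 3014 at an adjusted p under 1e-05. Quantile normalization gave 2483 higher and a 2-fold limit 3637 higher. Of those called higher, 972 had a Y mean below the S4 mean, a count also added after seeing the data. Leaving out 1 library gave 1592 to 1657 higher and 5899 to 6176 lower. Among the named transcripts, PCNA, MCM5, CDC6, CDC16 and WEE1-like lost the call without S4 replicate 4 and CENP-E without S4 replicate 2. The cause of these shifts was not tested. With equal RPKM sums the change turned negative for MCM7 (-0.10), cyclin B-1 (-0.42), cyclin B-2 (-0.64), piwi-2 (-1.55), piwi-3 (-1.66), bruno-like (-1.91), hnf-4 (-0.41), gata456a (-0.23) and follistatin (-0.24), and with RPKM by total reads for cyclin B-2 (-0.14), piwi-2 (-1.05), piwi-3 (-1.17) and bruno-like (-1.41). bruno-like was also at -0.04 after quantile normalization and ranged from -0.10 (without S4 replicate 4) to 0.34 with 1 library left out. nlg-6 was at 0.01 with a pseudocount of 0.01, 1.35 after quantile normalization, 0.31 with voom, 0.10 without S4 replicate 2 and, over all libraries left out in turn, from -0.21 to 0.13 (without S4 replicate 3). The paper pooled 1 replicate of each stage, yolk and C4 per sequencing lane, but the labels do not say whether replicate numbers mark lanes. Correlations of same-numbered deviations were 0.025, 0.085, 0.035 and 0.107, and the own number was the best match for 3 of 4. Whether the numbers pair the libraries was not settled, and the main fit treated them as unpaired. With the replicate block, 1624 were called higher and 6025 lower, and no named transcript changed its call. Levels below a few reads in S4 were not resolved.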

Other observations

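Protein families with a description in the study's tables often held members at both ends. These groups were made from the descriptions after values were seen, and the study's tables describe mainly transcripts it had selected, so that the counts are descriptions. Of the 2848 tested transcripts with a description gathered here, 446 were called higher and 1762 lower. None of the 446 had a mean in Y at or above that in S4. In selecting early embryo transcripts against the other stages, the paper left out those also upregulated in yolk. The absence of such means is thus a description of the pool. Named genes with a mean in Y at or above that in S4, such as RRM1 and PLK1, are outside this pool. Of 9 tubulins, 4 were called higher and 2 lower. Tubulin beta SMED30005227 had 286 to 468 RPKM in S4 and 0.165 to 0.207 in C4, while tubulin beta SMED30010977 had 21.1 to 31.1 and 540 to 779. Tubulins form microtubules. Where copies are identical over the length of a read, the read could be placed at several of them. The tubulin sequences were not compared, so the separate levels are uncertain. Of 14 collagens, 3 were called higher and 11 lower. The basement membrane collagens alpha-1(IV) and alpha-2(IV) had means of 158 and 155 RPKM in S4 and 0.0672 and 0.149 in C4, while the fibrillar collagen alpha-2(I) had 1.24 and 78.3. Of 23 venom allergen and GLIPR1-like transcripts, 5 were called higher and 17 lower, with GLIPR1 SMED30021818 at 1231 RPKM in S4 and 0.999 in C4 and GLIPR1-like protein 1 at 0.359 and 114.

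Groups of the translation machinery and the nervous system had calls mostly in 1 direction. Of 18 translation factors 12 were called higher and none lower, of 9 ribosomal proteins 8 higher and 1 lower, and of 7 proteasome subunits 6 higher and none lower. Elongation factor 2, which moves the ribosome along the mRNA, had 316 to 392 RPKM in S4 and 0.131 to 0.405 in C4 (log2 change 10.03 ± 0.24). Transcripts without a description gathered here were not counted in these groups. The level of a whole family in C4 is thus not known from them. All 23 neuropeptide and prohormone precursors, 18 of 20 synaptic proteins and 73 of 88 ion channels were called lower and none higher. Of the 2848 with a description, 446 were called higher and 1762 lower, so most of that pool was lower too. Synapsin, a synaptic vesicle protein, had 0.21 to 0.959 RPKM in S4 and 36.7 to 41.7 in C4 (-5.98 ± 0.34). Neuropeptide Y prohormone-9 had no read in S4 and was at least 49.6-fold lower there.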
